A study of Mus musculus with 4 samples.

Results

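The comparison sets the later stages of mouse muscle regeneration, 5 and 14 days after injury, against its early stages, 2 and 3 days after injury, in myogenic cells purified from the hind limb. All cells came from C57BL/6 mice aged 8 to 12 weeks whose hind-limb muscle had been injured by cardiotoxin, a snake venom toxin that kills muscle fibres and spares the stem cells beside them, so no uninjured muscle stands among the groups. They were never cultured, and were isolated with an antibody named SM/C-2.6 that recognises satellite cells. RNA of each day was measured on 1 Affymetrix mouse 430A array, which gives 2 late arrays (days 5 and 14) against 2 early arrays (days 2 and 3), all 4 arrays of the series. The sources used here do not say how many animals stand behind an array.

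Each gene was represented by 1 probe set with a single gene symbol, and its signal is in arbitrary units after scaling the arrays to a common 2% trimmed mean. Signals below 43.0, the pooled median of the scaled values, were set to 43.0, called the floor below. Of 12394 genes named on the array, 7930 exceeded the floor on 1 or more arrays and are called measured. A gene was late-high when both late arrays lay above both early arrays, with at least a 2-fold ratio between the lower late and the higher early signal, and late-low in the mirror case. This smallest late-to-early ratio is the fold given for each gene, so every fold below is the least favourable of the 4 ratios a gene has. For late-low genes it is turned round, the lower early signal over the higher late one, and says how far the late side lay lower. Where the dim side lay wholly at or under the floor, the fold is a lower bound and is written "at least". Late-high genes numbered 600, which is 7.57% of the measured genes, and late-low genes 282, which is 3.56%.

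The days of a side are different time points and not replicates, so no difference below has a replicate check and no p-value is given across genes. For a single gene, an exact two-sided permutation test of 2 arrays against 2 could not go below p = 0.333. Between probe sets of 1 gene, the mean late-to-early log2 difference had an SD of 0.40 (4646 probe sets of 1907 genes), an error that leaves out animals, purification and labelling. The late arrays showed more genes above the floor, 7251 and 7439 on days 5 and 14, against 6258 and 6874 on days 2 and 3. The ratio of 3′ to 5′ signal of Gapdh, which grows as RNA gets shorter, was 2.87 and 2.84 on the late arrays and 2.17 and 1.88 on the early arrays, and that of Actb overlapped, at 2.19 and 2.14 against 1.8 and 2.2. The part of transcript length in the results was not tested. Of the defining genes of myogenic cells, Myf5 and Myod1 were above the floor on all 4 arrays and Pax7 on all but day 2, with values given below. In a bulk sample, a lower signal from fewer cells of a type and one from less RNA per cell cannot be told apart.

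Satellite cells are the stem cells of skeletal muscle and lie between the fibre and its basement membrane. After injury they enter the cell cycle as myoblasts, and their daughters either differentiate and fuse into new fibres or leave the cycle and return to quiescence. Proliferating myoblasts copy DNA, build ribosomes and import proteins into mitochondria at a high rate, while quiescent satellite cells are small, divide rarely, express Pax7 and lie in a niche of collagens, laminins and proteoglycans that they help to build.

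The 7930 measured genes moved largely together in the 2 pairs of arrays that share no array, day 5 over day 2 and day 14 over day 3. The labels describe days 5 and 2 in one wording and days 14 and 3 in another, so each pair also keeps to one wording. Across genes, which are not independent replicates, Pearson's r of these log2 ratios was 0.669. At least 2-fold higher in both pairs were 766 genes and at least 2-fold lower in both were 453, whereas 42 genes moved 2-fold in opposite directions. Without regard to size, both late arrays lay above both early arrays for 2953 genes (37.2%) and below them for 2249 (28.4%), and the sides overlapped or tied for 2728. The median gene lay 0.12 log2 units higher on the late side, so the 2 directions are to be read against a small shift of all genes. Of the 882 calls, 68.0% were late-high. This share depended on the scaling, being 86.1% with the values as deposited and 57.6% after quantile normalization. Just inside the threshold, 125 late-high and 78 late-low genes had folds of 2 to under 2.2, and just outside it, 183 higher and 160 lower genes had folds of 1.8 to under 2.

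**Figure D1:**
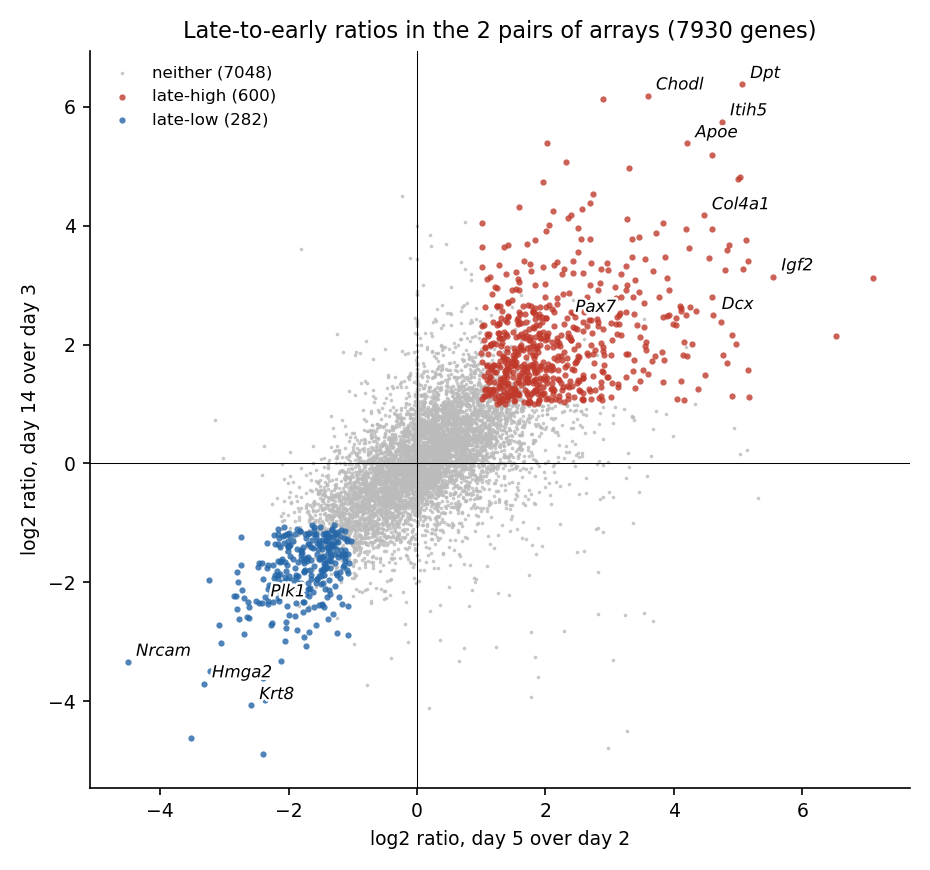
Each point is 1 of 7930 measured genes, with its log2 ratio of day 5 over day 2 on the horizontal and of day 14 over day 3 on the vertical axis. The 600 late-high genes (red) fill the upper right, the 282 late-low genes (blue) the lower left, and genes called neither way are grey.

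Among the genes with the largest folds, several of the late-high ones encode secreted or membrane proteins. Dpt, the matrix protein dermatopontin, had signals of 1430.3 and 5877 on days 5 and 14, against 32.5 and 70.7 on days 2 and 3. Its smallest ratio was 20.2-fold, the largest of any gene here. Htra3, a secreted serine protease, followed with 1366 and 2019 late against 16.8 and 73.2 early (18.7-fold). Its 3 measured probe sets gave mean log2 differences of 0.36 to 4.89, so the size depends on the probe set. Nrep, a small intracellular protein first described in nerve cells, had 1040.1 and 2747 on the late and 21.8 and 75.1 on the early arrays (13.8-fold). Chodl, the membrane lectin chondrolectin, read 517 and 3123 on days 5 and 14, against 15.8 and 32.8 on days 2 and 3 and was under the floor on both early arrays, at least 12-fold higher late. Itih5, a secreted protein that binds hyaluronan, stood at 1150.3 and 5833 late against 11.4 and 109 early. Its smallest ratio was 10.6-fold. Tagln, the actin-binding protein transgelin, read 1533 and 1294 on the late and 23.1 and 122 on the early arrays (10.6-fold), and Pdgfc, a growth factor that acts on PDGF receptors of mesenchymal cells, 1455 and 801 on days 5 and 14, against 31.4 and 82.8 on days 2 and 3 (9.67-fold). In each of these genes both late arrays were 9-fold or more above both early ones.

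On the early side, Nrcam, an adhesion molecule of the immunoglobulin superfamily, lay under the floor on both late arrays, with 36.6 and 36.1 late against 975 and 435 early (at least 10.1-fold lower). The simple epithelial keratins Krt8 and Krt18, which pair into 1 filament, were both late-low. Krt8 read 71.6 and 6.2 on the late and 429.5 and 720.4 on the early arrays (6-fold). Krt18 read 48.6 and 15.6 on days 5 and 14, against 454 and 484 on days 2 and 3 (9.33-fold). Among the other intermediate filament genes measured no other was called, vimentin (Vim) reading 9124 and 7560.0 late against 9789.5 and 11355 early and desmin (Des), the filament of muscle cells, 1787 and 1232 on the late and 888 and 1619.5 on the early arrays. Kcnn4, a calcium-activated potassium channel, had 125 and 17.4 on days 5 and 14, against 1427 and 1055 on days 2 and 3 (8.44-fold). Gal, which encodes the neuropeptide galanin, had 415 and 422 late against 2895 and 2293 early (5.43-fold). Here both late arrays were alike while the early ones were more than 5-fold above them. Eno3, the muscle form of the glycolytic enzyme enolase, read 829 and 148 on the late and 4364 and 4392 on the early arrays (5.26-fold), and Cavin4, a muscle protein of caveolae, 85.2 and 58.5 on days 5 and 14, against 442 and 917 on days 2 and 3 (5.18-fold). Egln3, a prolyl hydroxylase that marks hypoxia-inducible factor for destruction, had 112 and 34.2 late against 588 and 523 early (4.69-fold). Its probe sets ranged from -3.0 to -0.44 in mean log2 difference, as those of Tuba4a, an alpha-tubulin (817 and 1089 on the late and 5761 and 5106 on the early arrays), ranged from -2.64 to -0.21.

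Genes of the cell cycle made the 3 lists with the largest late-low shares. Of 68 measured genes of mitosis, 42 were late-low (61.8%, against 3.56% of all measured genes) and none late-high. Without regard to size, 65 lay lower on both late arrays than on both early ones, as 28.4% of all measured genes did. The median late-minus-early difference of the list was -1.68 log2 units, against 0.12 over all measured genes. Kif2c, a kinesin that takes microtubules apart at the centromere, had 106 and 73 on days 5 and 14, against 686 and 531 on days 2 and 3 (5-fold). Trip13, an ATPase of the spindle checkpoint, had 283 and 159 late against 2351 and 1283 early (4.54-fold). Plk1, the polo-like kinase that drives entry into mitosis, read 123 and 107 on the late and 652 and 544 on the early arrays (4.43-fold). In all 3 genes both late days lay far under both early days. Kif20a, a kinesin needed for cytokinesis, read 102 and 73.7 on days 5 and 14, against 642 and 442 on days 2 and 3 (4.33-fold). Cdk1, the kinase that starts mitosis, read 344 and 277 late against 2483 and 1300.3 early (3.78-fold). Mki67, the antigen Ki-67 used as a mark of cycling cells, was lower by less, at 725 and 737 on the late and 1719.6 and 1631 on the early arrays (2.21-fold), and remained well above the floor on both late days.

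DNA replication and the supply of its building blocks followed. Of 47 measured replication genes, 20 were late-low (42.6%, against 3.56% of all measured genes) and none late-high, with a median difference of -1.47 log2 units. At any size 44 lay lower on both late arrays, as 28.4% of all measured genes did. Fen1, the flap endonuclease that trims Okazaki fragments, read 483 and 281 on days 5 and 14, against 3277 and 1723 on days 2 and 3 (3.57-fold). Cdc45, a part of the replicative helicase, read 105 and 75.3 late against 439 and 335 early (3.19-fold), and Mcm10, which helps to start that helicase, 75.8 and 50.1 on the late and 365 and 229.7 on the early arrays (3.03-fold). Gmnn, the inhibitor of repeated origin licensing, stood at 291 and 115 on days 5 and 14, against 1059.8 and 807 on days 2 and 3 (2.78-fold). Of the helicase ring itself, Mcm3, Mcm4, Mcm5 and Mcm7 were late-low, while Mcm2, with 339.8 and 176 late against 684 and 671 early, missed the threshold at 1.98-fold. Pcna, the sliding clamp, had 2700.3 and 2524 on the late and 5929.5 and 4789 on the early arrays and was not called (1.77-fold). Of 26 measured genes of nucleotide synthesis, 12 were late-low (46.2%) and none late-high, with a median of -1.51. Mthfd2, a mitochondrial enzyme that feeds folate carbon units to purine synthesis, read 254 and 159 on days 5 and 14, against 1559 and 852 on days 2 and 3 (3.36-fold). Tk1, the thymidine kinase of S phase, read 258 and 76.1 late against 1119 and 765 early (2.96-fold), and Dut, which removes dUTP, 428 and 203 on the late and 1696 and 1187 on the early arrays (2.78-fold). The 3 lists together hold 141 measured genes, of which 74 were late-low. With the values as deposited, 29 mitosis, 8 replication and 6 nucleotide genes were late-low, and with the floor at the pooled 75th percentile 26, 9 and 11. The medians of these 3 lists kept their sign with the values as deposited, after quantile normalization and after centring the arrays on a common median.

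DNA repair and chromatin genes were late-low in 4 of 37 measured repair genes (10.8%) and 6 of 32 genes of chromatin copying and silencing (18.8%), against 3.56% of all measured genes, with none late-high in either list and medians of -0.57 and -0.90. Hmgb2, a DNA-bending protein of dividing cells, read 118 and 90.8 on days 5 and 14, against 605 and 429 on days 2 and 3 (3.64-fold). Mre11a, a nuclease of double-strand break repair, read 92.5 and 52.8 late against 460.4 and 261 early (2.83-fold), and Asf1b, a chaperone that hands histones to new DNA, 221 and 125 on the late and 709.8 and 587 on the early arrays (2.66-fold). Among regulators of the G1 phase, Ccne2, E2f8 and Skp2 were late-low and Mxd4, an antagonist of Myc, late-high, out of 23 measured (13.0% late-low and 4.35% late-high, against 3.56% and 7.57% of all measured genes). The 4 probe sets of Mxd4 gave mean log2 differences of -0.02 to 2.98, and its call was lost when probe sets were averaged. Ccne2, cyclin E2, had 68 and 37.9 on days 5 and 14, against 303 and 206 on days 2 and 3 (3.02-fold). E2f8, a repressor of the E2F family, had 193 and 76.6 late against 641 and 643 early (3.33-fold). Ccnd1, cyclin D1, overlapped between the sides, with 303 and 1324 on the late and 2673 and 801 on the early arrays. It was highest on day 2 and lowest on day 5, with day 14 above day 3.

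The promoters of the late-low genes were set beside those of all measured genes, since promoters of mitotic genes are known to share the cell cycle genes homology region, or CHR, and those of replication genes an E2F site. The promoter sequences are RefSeq's, on build GRCm38.p6, from 250 bases before to 50 bases after the annotated gene start, and were found for 239 of 282 late-low, 449 of 600 late-high and 6455 of 7930 measured genes. The CHR was searched as TTTGAA. The binding site of the factor NF-Y was searched as CCAAT. The E2F site was searched as TTCCCGC. A further form of the E2F site, TTGGCGC, was counted with it. All were searched on both strands, and of these motifs a reversed CCAAT can overlap the further E2F form by 4 bases. In the late-low mitosis genes, 24 of 33 promoters held a CHR (72.7%) and 25 held CCAAT (75.8%), whereas of all measured genes' promoters 11.7% held a CHR and 38.7% CCAAT. Measured mitosis genes as a whole, called or not, had a CHR in 33 of 54 promoters (61.1%). In the late-low replication and nucleotide genes, 11 of 27 promoters held an E2F site (40.7%) and 3 a CHR (11.1%), whereas 13.1% of all measured genes' promoters held an E2F site. Late-low genes outside these 3 lists had a CHR in 15.6% and an E2F site in 17.9% of 179 promoters. Over all 27025 RefSeq promoters of this length the shares were 18.1% for the CHR, 37.9% for CCAAT and 6.93% for the E2F site. Shown, to let the motifs be seen in place, are the late-low genes with the largest folds whose promoters hold a CHR or an E2F site, 2 from the mitosis and 1 from the replication list, with matches to the CHR, CCAAT and the E2F site in capitals.
Kif2c (GRCm38.p6, chr4:117178723-117179022, minus strand): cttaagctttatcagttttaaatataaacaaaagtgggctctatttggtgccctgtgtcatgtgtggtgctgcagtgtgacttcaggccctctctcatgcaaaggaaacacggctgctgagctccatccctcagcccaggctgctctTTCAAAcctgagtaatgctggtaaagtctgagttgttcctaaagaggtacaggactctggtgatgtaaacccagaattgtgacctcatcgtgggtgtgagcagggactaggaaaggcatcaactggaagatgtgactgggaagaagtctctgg
Plk1 (GRCm38.p6, chr7:122159185-122159484, plus strand): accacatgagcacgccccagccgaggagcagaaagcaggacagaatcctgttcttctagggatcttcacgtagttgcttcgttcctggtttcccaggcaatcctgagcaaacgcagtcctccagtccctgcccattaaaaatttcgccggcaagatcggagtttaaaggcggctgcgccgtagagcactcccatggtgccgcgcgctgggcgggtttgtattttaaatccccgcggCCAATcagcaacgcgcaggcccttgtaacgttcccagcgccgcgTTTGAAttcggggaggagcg
Fen1 (GRCm38.p6, chr19:10204344-10204643, minus strand): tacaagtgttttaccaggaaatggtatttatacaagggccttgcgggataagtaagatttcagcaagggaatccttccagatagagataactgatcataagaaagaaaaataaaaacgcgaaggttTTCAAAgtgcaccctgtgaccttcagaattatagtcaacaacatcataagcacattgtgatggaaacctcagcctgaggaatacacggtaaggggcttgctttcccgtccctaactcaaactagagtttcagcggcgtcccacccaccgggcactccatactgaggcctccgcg
Capitals TTCAAA are the CHR on the other strand. Counted from the gene start as 0, the CHR begins at -103 in Kif2c, at 30 in Plk1 and at -124 in Fen1, and CCAAT at -14 in Plk1. The gene starts are annotated ones, a match is a description and not a binding site, and Fen1, a replication gene, shows that a CHR also occurs outside mitosis genes.

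Machinery of cell growth was lower on the late side in a graded way. Of 64 measured genes of ribosome biogenesis 11 were late-low (17.2%, against 3.56% of all measured genes), with a median of -1.03 log2 units. At any size 61 were lower, as 28.4% of all measured genes were. Lyar, a nucleolar protein of growing cells, read 425 and 323 on days 5 and 14, against 1997 and 1225 on days 2 and 3 (2.89-fold). Nolc1, a nucleolar scaffold protein, read 335 and 378 late against 1555 and 967 early (2.56-fold), and Wdr12, needed to mature the large ribosomal subunit, 109.5 and 80.4 on the late and 767 and 285 on the early arrays (2.6-fold). Day 2 was the highest array for all 3. The 2 probe sets of Wdr12 gave mean log2 differences of -2.316 and -0.487. The early days differ for this list as a whole: its summed signal was 28694 and 28782 on days 5 and 14, against 72513 and 49423 on days 2 and 3. Without the day 3 array, when day 2 alone stands for the early side, 50 members were late-low, and without the day 2 array 12. Mitochondrial ribosome and import genes went the same way, with 19 of 74 late-low (25.7%), 72 lower at any size and a median of -1.09. Mrpl18, a protein of the large mitochondrial ribosomal subunit, had 282 and 118 on days 5 and 14, against 1154 and 799.7 on days 2 and 3 (2.84-fold). Tomm40, the channel through which proteins enter mitochondria, had 259.6 and 221 late against 735 and 761 early (2.83-fold). Hspd1, the mitochondrial chaperonin, had 2094 and 2146 on the late and 5100.3 and 4386 on the early arrays (2.04-fold). With the values as deposited, 5 ribosome biogenesis and 4 mitochondrial ribosome and import genes were late-low.

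By contrast, none of 45 measured ribosomal proteins was called in either direction, where 11.1% of all measured genes were. Their median difference was -0.03 log2 units (0.14 with the values as deposited and 0.05 after quantile normalization), and their summed signal was 234920 and 248153 on days 5 and 14, against 250661 and 258209 on days 2 and 3. Rplp0, the stalk protein used as a reference gene, read 8123 and 8219.6 on days 5 and 14, against 8564 and 8969 on days 2 and 3, and Rps18 read 8551 and 8420.4 late against 8199 and 9146 early. Between these poles lay the proteasome and chaperonin (5 of 49 late-low, 46 lower at any size against 28.4% of all measured genes, median -0.79), translation factors and tRNA charging enzymes (3 of 46, median -0.71), nuclear transport (4 of 41, median -0.70), splicing factors (5 of 52, median -0.59) and oxidative phosphorylation (4 of 73, median -0.52). Ranbp1, a partner of the Ran GTPase in nuclear transport, read 1222 and 859 on the late and 4253 and 3460.4 on the early arrays (2.83-fold). Ddx39a, an RNA helicase of splicing and export, read 759 and 418 on days 5 and 14, against 3688 and 2747 on days 2 and 3 (3.62-fold). Atp5g1, a subunit of the proton ring of ATP synthase, read 528 and 400.0 late against 1518 and 2073 early (2.88-fold), and Cycs, cytochrome c, 1730.4 and 1316 on the late and 3756 and 4087 on the early arrays (2.17-fold). The late-low shares of these 5 lists, 5.48% to 10.2%, compare with 3.56% of all measured genes, and those of the 3 cell cycle lists were over 10 times that background. With the values as deposited, late-low were 1 proteasome and chaperonin, 0 translation, 3 nuclear transport, 2 splicing and 1 oxidative phosphorylation genes. None of 25 measured genes of cholesterol and fatty acid synthesis was called, nor any of 17 transporters of amino acids and glucose. As 11.1% of all measured genes were called in either direction, lists of this size would hold few calls at that share. The medians of both lists changed sign with the scaling.

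**Figure D2:**
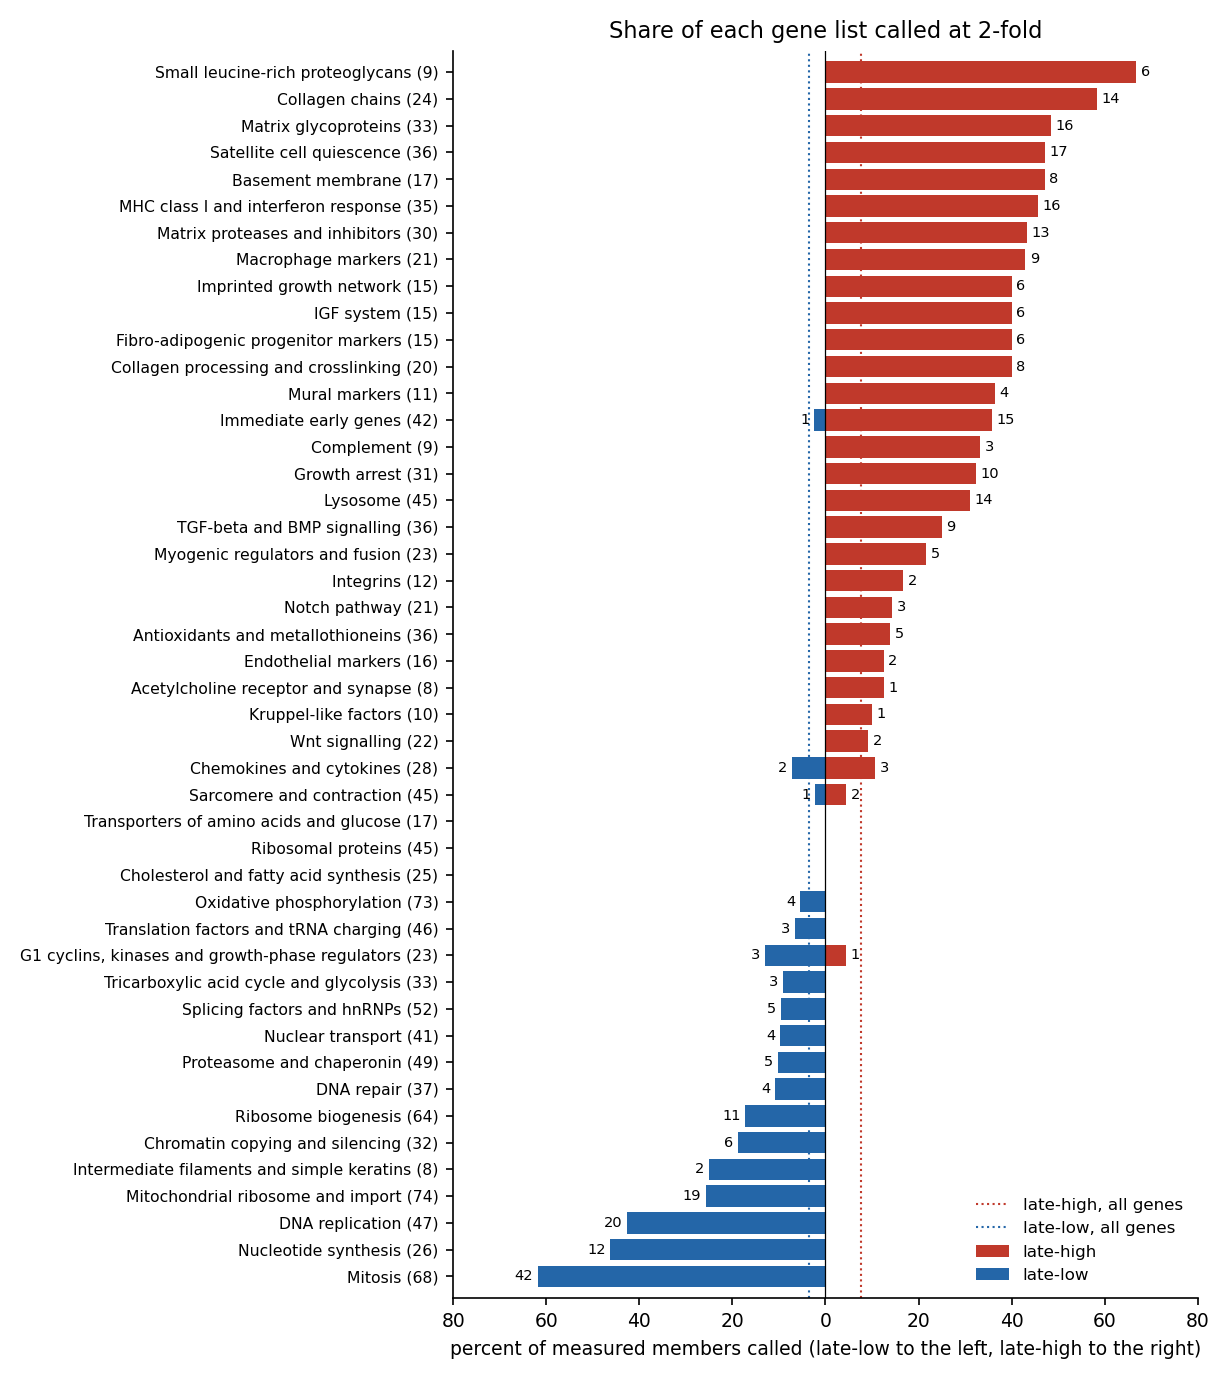
Bars give the percent of each list's measured members (their number in brackets) that were late-high (red, right) and late-low (blue, left), with the count at the bar's end, for lists with at least 8 measured members. Dotted lines mark the shares over all measured genes, 7.57% and 3.56%. Mitosis reaches 61.8% on the late-low side and the small leucine-rich proteoglycans 66.7% on the late-high side.

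Extracellular matrix genes made the lists with the largest late-high shares, proteoglycans and collagen chains. In 6 lists of collagens, collagen processing, basement membrane, matrix glycoproteins, proteoglycans and matrix proteases, 65 of 133 measured genes were late-high and none was late-low, where 7.57% and 3.56% of all measured genes were. Collagen chains were late-high in 14 of 24 measured genes, with a median difference of 2.18 log2 units. Col4a1 and Col4a2, the paired chains of the type IV collagen network in basement membranes, had the largest folds. Col4a1 read 2359.9 and 4028 on days 5 and 14, against 107 and 224 on days 2 and 3 (10.6-fold), and Col4a2 read 1197 and 1928 late against 66 and 125 early (9.58-fold). Col14a1, a collagen that binds to the surface of fibrils, read 452 and 444 on the late and 19.7 and 52.4 on the early arrays (8.49-fold). Of the main fibril collagens, Col1a1 (1256 and 1301 on days 5 and 14, against 107 and 329.7 on days 2 and 3, 3.81-fold) and Col3a1 (8043 and 8751 late against 1201 and 3168 early, 2.54-fold) were late-high. Col1a2 was higher on both late arrays, with 10695 and 8814 on the late and 1592 and 6138 on the early arrays, and was not called (1.44-fold). For 8 of the 14 late-high collagens the signal was already at least 2-fold higher on day 3 than on day 2. Sparc, which chaperones collagen IV, read 6431 and 6106 on days 5 and 14, against 1024 and 1695 on days 2 and 3 (3.6-fold), and Loxl1, an enzyme that crosslinks elastin and collagen, 2817 and 2769 late against 139 and 469.7 early (5.89-fold).

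Basement membrane genes were late-high in 8 of 17 measured (47.1%, against 7.57% of all measured genes). Lama2, the laminin chain of muscle basement membrane whose loss causes a congenital muscular dystrophy, read 1644 and 2429 on the late and 139.9 and 224 on the early arrays (7.35-fold). Nid1, nidogen, which links laminin to collagen IV, read 680.2 and 707 on days 5 and 14, against 78.9 and 128 on days 2 and 3 (5.32-fold). Smoc2, a calcium-binding protein of basement membranes, read 237 and 237 late against 14.8 and 35.5 early (at least 5.51-fold). Small leucine-rich proteoglycans, which coat collagen fibrils and bind growth factors, were late-high in 6 of 9 measured genes with a median of 3.17, the largest of any list. Aspn, asporin, read 474 and 482 on the late and 14.6 and 65.3 on the early arrays (7.26-fold). Lum, lumican, read 797 and 1750.2 on days 5 and 14, against 72.5 and 125 on days 2 and 3 (6.4-fold), Bgn, biglycan, 6969 and 5657 late against 262 and 1089 early (5.19-fold), and Ogn, osteoglycin, 1611 and 1971 on the late and 84.6 and 319 on the early arrays (5.05-fold). All late signals of these genes were 5-fold or more above the early ones. Of 33 measured matrix glycoproteins 16 were late-high (48.5%, against 7.57% of all measured genes). Mfap4, a protein of elastic microfibrils, read 809.6 and 529 on days 5 and 14, against 1.4 and 24.3 on days 2 and 3 (at least 12.3-fold). Ltbp3, which holds latent TGF-beta in the matrix, read 2647 and 2804 late against 156 and 449 early (5.89-fold), and Igfbp7 read 2282 and 1679.9 on the late and 139 and 309 on the early arrays (5.44-fold). Postn, periostin, was highest on day 5, with 7737 and 3983 on days 5 and 14, against 84.6 and 900.4 on days 2 and 3 (4.42-fold). Fn1, fibronectin, had 5086 and 2948 late against 252 and 1479 early and fell just short of a call at 1.99-fold.

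Enzymes that cut the matrix were late-high as well, in 13 of 30 measured genes (43.3%). Fap, the fibroblast activation protein, a membrane peptidase, read 1249 and 874 on the late and 16.7 and 68.6 on the early arrays (12.7-fold). Mmp2, the gelatinase that acts on collagen IV, read 2542 and 4138 on days 5 and 14, against 72.8 and 307 on days 2 and 3 (8.27-fold). Its activator Mmp14, a membrane-bound protease, read 2119.6 and 834 late against 75 and 259.8 early (3.21-fold). Adamts5, an aggrecanase, read 439 and 587 on the late and 13.6 and 39.8 on the early arrays (at least 10.2-fold). Of integrins, the receptors for these matrix proteins, 2 of 12 measured were late-high (16.7%, against 7.57% of all measured genes), Itgb5 with 802 and 856 on days 5 and 14, against 50.9 and 169 on days 2 and 3 (4.75-fold) and the integrin-like Itgbl1 with 124 and 149.9 late against 15.4 and 21.8 early (at least 2.88-fold). Itga7, the laminin receptor of muscle cells, overlapped between the sides, with 1464 and 1070.0 on the late and 982 and 1768 on the early arrays.

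Markers of connective tissue cells moved with the matrix genes. Of 15 measured markers of fibro-adipogenic progenitors, the collagen-making cells between muscle fibres, 6 were late-high (40.0%, against 7.57% of all measured genes). The summed signal of the 15 was 10901 and 19271 on days 5 and 14, against 1737 and 4282 on days 2 and 3. Much of it came from the uncalled Gsn (3542 and 7234 late against 195 and 1852 early) and Serpinf1 (2851 and 1972 late against 851 and 1212 early). The defining receptor Pdgfra read 105 and 104 on days 5 and 14, against 11.1 and 41.7 on days 2 and 3 (at least 2.42-fold), and 5 of the 20 markers on the array were under the floor on every array. Lum, Mfap5 and Smoc2 stand both in this list and in the matrix lists. Of 11 measured markers of mural cells, the cells that wrap vessels, 4 were late-high (36.4%), with sums of 13230 and 12630 on the late days, against 1851 and 6006 on the early ones, and the 4 include Tagln, described above. Most of these sums came from Acta2 (7744 and 6176 late against 750 and 3596 early) and Des, the filament of muscle cells (1787 and 1232 late against 888 and 1620 early). Neither was called. Myh11, the smooth muscle myosin, read 39.4 and 56.5 late against 7.1 and 18.4 early, above the floor on day 14 alone, while Pdgfrb read 322 and 236 on the late and 14.8 and 66.7 on the early arrays (3.53-fold). Endothelial markers summed to 4903 and 7405 late and 3488 and 4354 early, sums to which Cav1, also expressed by other cells, gave 3578 and 4252 late and 2813 and 3537 early. Of 16 measured endothelial markers 2 were late-high (12.5%, against 7.57% of all measured genes) and 7 lay higher at any size, as 37.2% of all measured genes did. When signals under the floor are read as they stand, 14 lay higher, a count without a share over all genes beside it. Tek read 85.5 and 214 on days 5 and 14, against 15.3 and 28.1 on days 2 and 3, Cldn5 39.6 and 148 late against 24.3 and 38.3 early and Vwf 23.8 and 89 on the late and 2.7 and 10.3 on the early arrays, each highest on day 14 and not called. The defining markers Pecam1 and Cdh5 lay under the floor on every array. The part of other cell types in the matrix result was not tested.

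**Figure D3:**
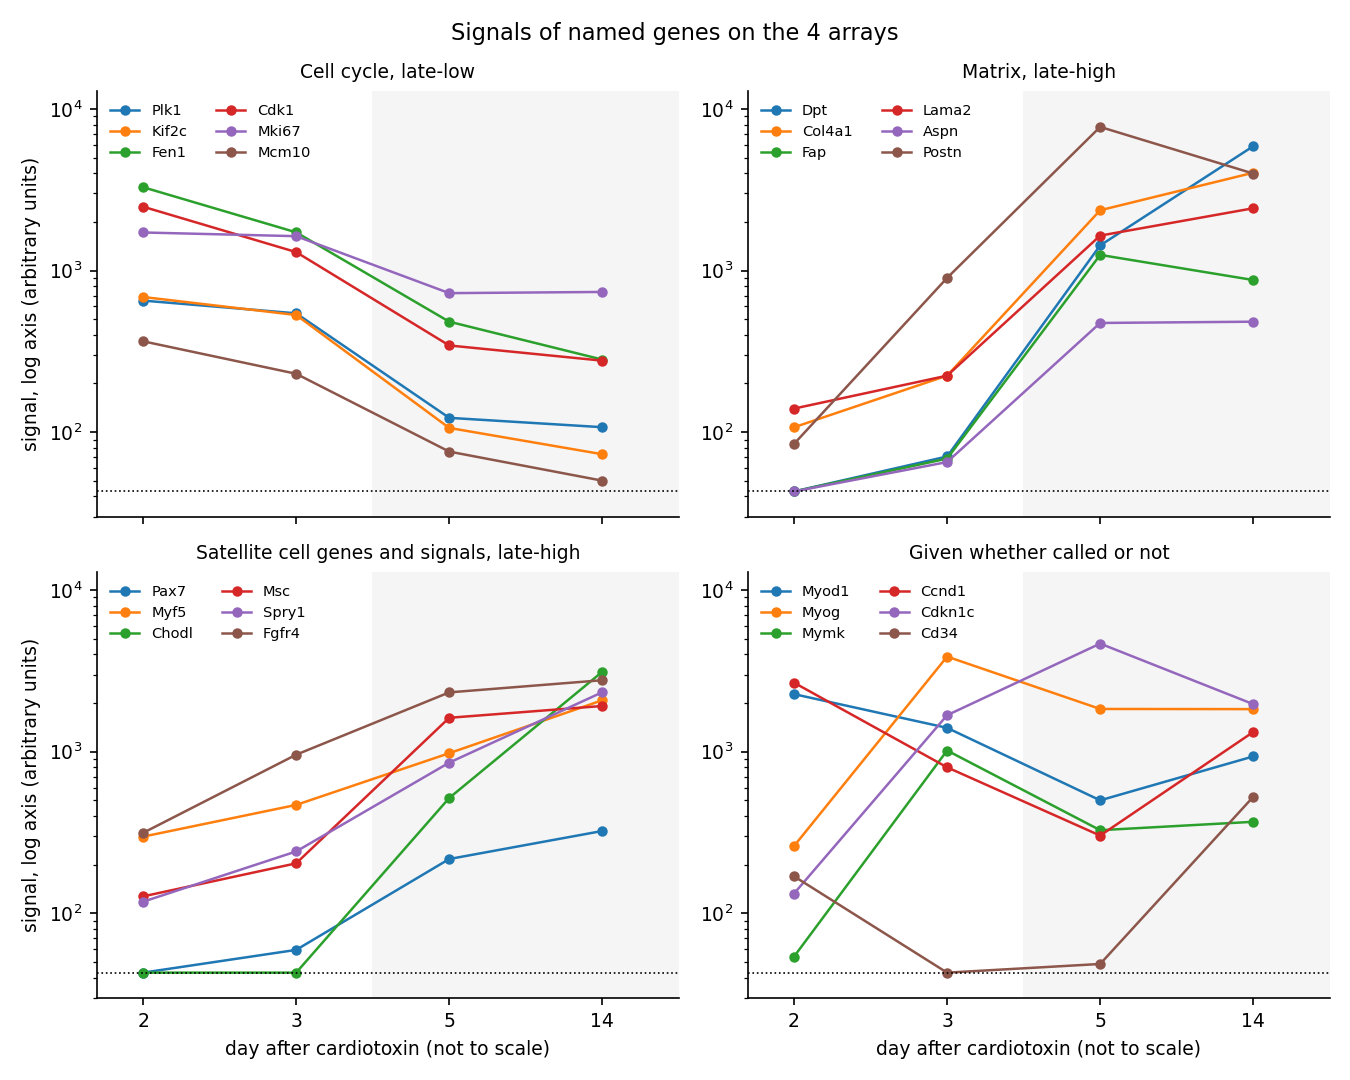
Signals of named genes (log axis, arbitrary units) on days 2, 3, 5 and 14 (not to scale), with the late days shaded, 1 array a day and the floor dotted; signals under the floor are drawn at it. Cell cycle genes lie lower and matrix and satellite cell genes higher on both shaded days, whereas genes of the last panel overlap between the sides or miss the threshold.

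Growth factor systems that cells of muscle use to talk to each other were late-high in part. In the insulin-like growth factor system, which drives muscle growth, 6 of 15 measured genes were late-high (40.0%, against 7.57% of all measured genes). Of the ligands, Igf2 read 3605 and 4220.0 on days 5 and 14, against 77.4 and 478 on days 2 and 3 (7.54-fold) and Igf1 639 and 990.2 late against 35.1 and 114 early (5.59-fold). Igf2r, which removes Igf2 from the cell surface, read 797 and 619.6 on the late and 43.5 and 178 on the early arrays (3.48-fold), and Igfbp4, a binding protein that holds the ligands, 2604 and 2556 on days 5 and 14, against 243 and 507 on days 2 and 3 (5.04-fold). Ligand, clearing receptor and binding protein were all higher late, each above its early signals by 3-fold or more. Of 36 genes of TGF-beta and BMP signalling 9 were late-high. The ligands Tgfb2 and Tgfb3, which hold satellite cells back from differentiation in culture, were both late-high. Tgfb2 read 409 and 615 late against 41.7 and 81.6 early (5.01-fold), and Tgfb3 read 623 and 958 on the late and 22.1 and 86.8 on the early arrays (7.18-fold). Bmp6, a bone morphogenetic protein, read 215 and 1437 on days 5 and 14, against 11.4 and 36.4 on days 2 and 3 (at least 5.01-fold). Fstl1, a secreted relative of follistatin, read 3379.6 and 2938 late against 196 and 496 early (5.92-fold).

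In the Notch pathway, which keeps satellite cells in quiescence, 3 of 21 measured genes were late-high (14.3%, against 7.57% of all measured genes). Notch3, a receptor of satellite and mural cells, read 824 and 1165 on the late and 55.3 and 209 on the early arrays (3.93-fold), and the Notch target Heyl 781 and 1169 on days 5 and 14, against 9.2 and 208 on days 2 and 3 (3.76-fold). Psen2, a part of the enzyme that releases the active end of Notch, read 129.5 and 145 late against 32.5 and 52.1 early (2.48-fold). Hey1, another target, was high on day 14 alone, with 176 and 623 on the late and 97.7 and 181 on the early arrays, and was not called. In Wnt signalling 2 of 22 measured genes were late-high, the receptors Fzd4 (277 and 292 on days 5 and 14, against 50.9 and 97.8 on days 2 and 3, 2.83-fold) and Fzd8 (139.9 and 181 late against 33.5 and 52.2 early, 2.68-fold), a share close to that of all genes. Imprinted genes of the growth network, which limit or drive growth by the parent of origin, were late-high in 6 of 15 (40.0%). Plagl1, a zinc finger factor that controls others of the network, read 5753 and 4346 on the late and 558 and 623 on the early arrays (6.98-fold), and Sgce, epsilon-sarcoglycan, 1044 and 1036 on days 5 and 14, against 158 and 226 on days 2 and 3 (4.59-fold).

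Genes of quiescent satellite cells were late-high in 17 of 36 measured, with none late-low and a median of 2.01 log2 units (47.2%, against 7.57% of all measured genes). Of the 17, Rgs5 is also counted among the mural markers and Fabp4 among the endothelial and adipocyte markers, and the uncalled members Tek, Esam and Cav1 are endothelial markers too. Pax7, the transcription factor that defines satellite cells, read 217 and 323 late against 35.7 and 59.4 early (3.65-fold). Chodl and Bmp6, described above, belong to this list too. Spry1, an inhibitor of FGF signalling needed for the return to quiescence, read 856 and 2334 on the late and 118 and 242 on the early arrays (3.54-fold). Fgfr4, an FGF receptor of myogenic cells, read 2329 and 2769.7 on days 5 and 14, against 315 and 958 on days 2 and 3 (2.43-fold), and Cxcr4, the receptor for Cxcl12, 396 and 379.7 late against 61.6 and 71.7 early (5.29-fold). Tenm4, a teneurin membrane protein, read 227 and 783 on the late and 15.6 and 43.5 on the early arrays (5.22-fold). Most of these were higher on day 14 than on day 5, as 16 of the 17 called members were, and 9 by at least 2-fold. Of all 600 late-high genes, 70.8% were higher on day 14 than on day 5, so this direction is not particular to the list. Some members were high on day 14 alone or overlapped, and were not called: Calcr, the calcitonin receptor of quiescent cells, read 49.5 and 615 on days 5 and 14, against 10.4 and 10.3 on days 2 and 3, and Cd34, a sialomucin of the stem cell surface, 48.6 and 526 late against 169 and 29.1 early. Both differed between days 5 and 14 by 10-fold or more. Vcam1, an adhesion molecule of satellite cells, was higher on both late arrays, with 2618 and 3449.8 on the late and 1471 and 1338 on the early arrays, at 1.78-fold.

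The myogenic regulators were split. Of 23 measured, 5 were late-high (21.7%, against 7.57% of all measured genes). Myf5, the determination factor of myoblasts, read 979 and 2081 on days 5 and 14, against 298 and 469 on days 2 and 3 (2.09-fold), and Msc, musculin, a repressor that competes with MyoD for its binding sites, 1622 and 1919 late against 127 and 204 early (7.95-fold). Jam3, an adhesion protein, read 519 and 497 on the late and 131 and 189 on the early arrays (2.64-fold). Myod1, the determination factor of cycling myoblasts, went the other way, with 500.2 and 935 on days 5 and 14, against 2272 and 1405 on days 2 and 3, and at 1.5-fold lower it was not called. Myog, the factor of terminal differentiation, overlapped between the sides, with 1839 and 1835 late against 261 and 3876 early, as did Mymk, the fusion protein myomaker, with 327 and 368 on the late and 54 and 1017 on the early arrays. For both genes the lowest array was day 2 and the highest day 3, so the early side spans the late one. Of the sarcomere and contraction list, 42 of 45 measured genes were called in neither direction, where 11.1% of all measured genes were called in either. Its late-high share was 4.44% and its late-low share 2.22%, near the 7.57% and 3.56% of all measured genes. The median of the list was 0.03, with a sign that changed with the scaling. Its summed signal was 32056 and 25399 on days 5 and 14, against 19231 and 48311 on days 2 and 3, and Myh3, embryonic myosin, read 339 and 80.4 on days 5 and 14, against 20.4 and 2210.1 on days 2 and 3. For Myog, Mymk and Myh3 the early days lay at opposite ends and the late days between them.

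Genes that slow the cell cycle were late-high in 10 of 31 measured (32.3%, against 7.57% of all measured genes), with none late-low. Txnip, the thioredoxin-interacting protein that limits glucose uptake, read 459 and 1455 late against 68.8 and 62.6 early (6.68-fold). Its 2 probe sets gave mean log2 differences of 0.738 and 3.639. Btg2, an antiproliferative protein, read 431 and 3134 on the late and 43.9 and 100.4 on the early arrays (4.29-fold), and Gadd45a, a growth arrest gene of the DNA damage response, 226 and 329 on days 5 and 14, against 10.5 and 78 on days 2 and 3 (2.9-fold). Foxo1, a transcription factor held in check by insulin signalling, read 172 and 459 late against 45.7 and 74.3 early (2.31-fold). All 10 were higher on day 14 than on day 5, as 70.8% of all late-high genes were, 7 of them by at least 2-fold. The cyclin-dependent kinase inhibitors were not called: Cdkn1a (p21) overlapped, with 1440.1 and 2886 on the late and 2363 and 3751 on the early arrays, Cdkn1b (p27) read 122 and 201 on days 5 and 14, against 49.4 and 65.2 on days 2 and 3 (1.88-fold), and Cdkn1c (p57) read 4667 and 1969.5 late against 133 and 1683 early (1.17-fold). For Cdkn1c, the day 2 array lay far below the other 3.

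Immediate early genes, which cells induce within minutes of a stimulus, were late-high in 15 of 42 measured (35.7%, against 7.57% of all measured genes). Fosl1 alone was late-low (2.38%, against 3.56%). Egr2, a zinc finger factor, read 1382 and 2532 on the late and 57.4 and 164 on the early arrays (8.41-fold). Cebpd, a C/EBP factor of the acute phase, read 861 and 2673 on days 5 and 14, against 133 and 128 on days 2 and 3 (6.46-fold), and Socs3, the feedback inhibitor of STAT3, 2442 and 3208 late against 179 and 462 early (5.29-fold). Atf3, a stress factor, read 327 and 1958 on the late and 75.3 and 103 on the early arrays (3.19-fold). Of the 15, 14 were higher on day 14 than on day 5, as 70.8% of all late-high genes were. Fos itself was higher on both late arrays, with 5892 and 9069 on days 5 and 14, against 1139 and 3539 on days 2 and 3, and was not called (1.67-fold). Fosl1, Fra-1, a Fos relative of proliferating cells, ran the other way, with 202 and 180.1 late against 505 and 468 early (2.31-fold).

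Genes of antigen presentation, complement and lysosomes were late-high together with macrophage markers. Of 35 measured genes of MHC class I and the interferon response 16 were late-high (45.7%, against 7.57% of all measured genes). B2m, the light chain of MHC class I, read 3061 and 4813 on the late and 791 and 925 on the early arrays (3.31-fold), and the heavy chain H2-D1 1299 and 2234 on days 5 and 14, against 586 and 564 on days 2 and 3 (2.22-fold). Tap1, the peptide transporter that loads it, read 163 and 173 late against 12.5 and 43.3 early (3.75-fold). Gbp2, an interferon-induced GTPase, read 304 and 271 on the late and 16.6 and 54.5 on the early arrays (4.98-fold). Of complement genes 3 of 9 were late-high (33.3%). Serping1, the inhibitor of the first complement component, read 1408 and 4265 on days 5 and 14, against 31.9 and 151 on days 2 and 3 (9.34-fold), and C1s1, a protease of that component, 209 and 413 late against 10.3 and 26.6 early (at least 4.86-fold). Lysosomal genes were late-high in 14 of 45 measured (31.1%). Scarb2, a membrane protein of lysosomes, read 2699.8 and 2582 on the late and 425 and 726 on the early arrays (3.56-fold), Lamp2 read 2331 and 2638 on days 5 and 14, against 544 and 848 on days 2 and 3 (2.75-fold), and the protease Ctsf 137 and 453 late against 12.1 and 22.7 early (at least 3.19-fold). After quantile normalization 10 lysosomal and 12 MHC and interferon genes were late-high, and with the floor at the pooled 75th percentile 7 and 3.

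Of 21 measured macrophage markers 9 were late-high (42.9%, against 7.57% of all measured genes). At any size 17 lay higher on both late arrays, as 37.2% of all measured genes did. With signals under the floor read as they stand 20 did, a count without a share over all genes beside it. The summed signal of the 21 was 5050 and 4724 on days 5 and 14, against 454.0 and 1637 on days 2 and 3. Lyz1, lysozyme, read 1980.0 and 1438 on the late and 88.3 and 510.3 on the early arrays (2.82-fold). Csf1r, the receptor macrophages need to survive, read 316 and 269 on days 5 and 14, against 20.2 and 91 on days 2 and 3 (2.96-fold), and H2-Aa, an MHC class II chain, 390.1 and 470.4 late against 13.6 and 51.7 early (7.55-fold). The 2 probe sets of H2-Aa gave mean log2 differences of 0.174 and 3.185, so its size depends on the probe set. The defining markers Ptprc (CD45) and Adgre1 (F4/80) were low, Ptprc with 59.7 and 54.5 on the late and 13.1 and 14.1 on the early arrays and Adgre1 with 106 and 86.5 on days 5 and 14, against 23.7 and 52.6 on days 2 and 3, and neither was called. Both lay higher on both late arrays, and the early Ptprc signals lay under the floor, which makes its ratio smaller. Itgam, Cd163 and Cx3cr1 lay under the floor on every array. All 18 neutrophil and lymphocyte markers and all 5 erythroid markers on the array lay under the floor on every array. The part of macrophage RNA in the lysosomal, complement and MHC results was not tested.

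Antioxidant genes and metallothioneins were late-high in 5 of 36 measured (13.9%, against 7.57% of all measured genes). Selenop, the plasma selenium carrier, read 1742 and 2950.3 late against 61.5 and 244 early (7.13-fold), and Gpx3, a secreted glutathione peroxidase, 2942 and 5608 on the late and 125 and 511 on the early arrays (5.76-fold). Of 28 chemokines and cytokines 3 were late-high (10.7%) and 2 late-low (7.14%), shares near the 7.57% and 3.56% of all measured genes. Cxcl12, the ligand of Cxcr4, read 540.2 and 386 on days 5 and 14, against 113 and 163 on days 2 and 3 (2.36-fold), and Il6 367 and 507 late against 125 and 139 early (2.64-fold). Late-low were Mif, the macrophage migration inhibitory factor, with 1691 and 1181 on the late and 4565 and 4030.4 on the early arrays (2.38-fold), and the alarm signal Il33 with 58 and 32.4 on days 5 and 14, against 133 and 163 on days 2 and 3 (2.3-fold). In carbon metabolism 3 of 33 genes of the tricarboxylic acid cycle and glycolysis were late-low (9.09%, against 3.56% of all measured genes), Eno3, Dlat and Idh3a. Idh3a, a subunit of the cycle's isocitrate dehydrogenase, read 792 and 619 late against 2149 and 2262 early (2.71-fold). Of 10 Kruppel-like factors 1 was late-high (10.0%, against 7.57% of all measured genes), Klf9, with 1887 and 6562 on the late and 935 and 667 on the early arrays (2.02-fold), a call that was lost after centring the arrays on a common median and after averaging its probe sets. Of 8 genes of the acetylcholine receptor and synapse 1 was late-high (12.5%), Agrn, agrin, with 286 and 306 on days 5 and 14, against 50.3 and 87.3 on days 2 and 3 (3.27-fold). The few markers measured of Schwann cells (5 of 9) summed to 2632 and 5742 late, against 358.9 and 558.7 early, most of it from Pmp22 (1064 and 2972 late against 197 and 282 early) and Egr2, both late-high, of which Egr2 is also an immediate early gene. The defining Schwann cell marker Sox10 overlapped between the sides, with 21.5 and 42 on the late and 15.8 and 46.3 on the early arrays. Those of adipocytes (3 of 9) summed to 1019 and 3215 late, against 972.3 and 1121 early, and most of that signal was Lpl, which was not called. Fabp4, the same gene as among the endothelial markers, was late-high with 96.8 and 707 on days 5 and 14, against 48.2 and 30.8 on days 2 and 3 (2.01-fold), a call lost after quantile normalization, after centring, with 16 added in place of a floor and after averaging probe sets. Adipoq and Pparg lay under the floor on every array.

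Within the sides, most called genes were level. Of 600 late-high genes, 390 (65.0%) differed by less than 2-fold both between days 5 and 14 and between days 2 and 3. Of 282 late-low genes, 245 (86.9%) did. Of 7930 measured genes, 610 differed by at least 2-fold between days 5 and 14 and 594 between days 2 and 3. Late-high genes were thus less often level than measured genes as a whole. The late-low share cannot be ranked this way, since genes level in both pairs of days were not counted over all measured genes. A further 84 late-high genes were at least 2-fold higher on day 14 than on day 5 while level between the early days. Ratios within a side use floored signals, so a change that starts under the floor counts as smaller than the raw signals show. Of the 600 late-high genes, 316 were above the floor on all 4 arrays. Prelp, a proteoglycan that anchors basement membranes, had 176 and 3313 late against 15.7 and 78.8 early. Its day 2 signal lay under the floor, and its day 3 over day 2 ratio counted as 1.83-fold. Abca8a, a lipid transporter, had 319 and 3011 on the late and 15.8 and 17.2 on the early arrays, and Aldh1a1, a retinaldehyde dehydrogenase, 167 and 1146 on days 5 and 14, against 13.3 and 28.9 on days 2 and 3. These genes were far higher on day 14 than on any other day, and their calls rest on the lower level of day 5. In 98 late-high genes day 3 was at least 2-fold above day 2 while the late days were level. Col6a2, a collagen VI chain, had 3051 and 3485 late against 97.8 and 864 early, and Col5a1, which starts collagen fibrils, 4112 and 2389 on the late and 138 and 1085 on the early arrays. In these genes day 3 lay between day 2 and the late days. Another 12 late-high genes were at least 2-fold higher at both steps, day 3 over day 2 and day 14 over day 5, among them Btg2.

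In 16 late-high genes day 14 was at least 2-fold lower than day 5. Dcx, doublecortin, a microtubule protein of migrating neurons, had 1052 and 242 on days 5 and 14, against 0.8 and 25.2 on days 2 and 3. Its 3 measured probe sets gave mean log2 differences of 0.274 to 3.553. Gpc3, a glypican proteoglycan, had 419 and 155 late against 6.0 and 22.6 early, and Islr, an immunoglobulin-domain protein of stromal cells, 5856 and 2827 on the late and 17 and 325 on the early arrays. Of the late-low genes, 22 were at least 2-fold lower on day 14 than on day 5 and level between the early days. Eno3, above, was the widest of them. Hmga2, a chromatin protein of dividing embryonic and stem cells, was the 1 late-low gene that was at least 2-fold lower at both steps, with 157 and 8.1 on days 5 and 14, against 1569 and 559 on days 2 and 3. Cavin4 was the 1 late-low gene with day 3 at least 2-fold above day 2. In direction alone, 70.8% of the late-high genes were higher on day 14 than on day 5 and 10.3% of the late-low genes were, against 49.4% of all measured genes.

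**Figure D4:**
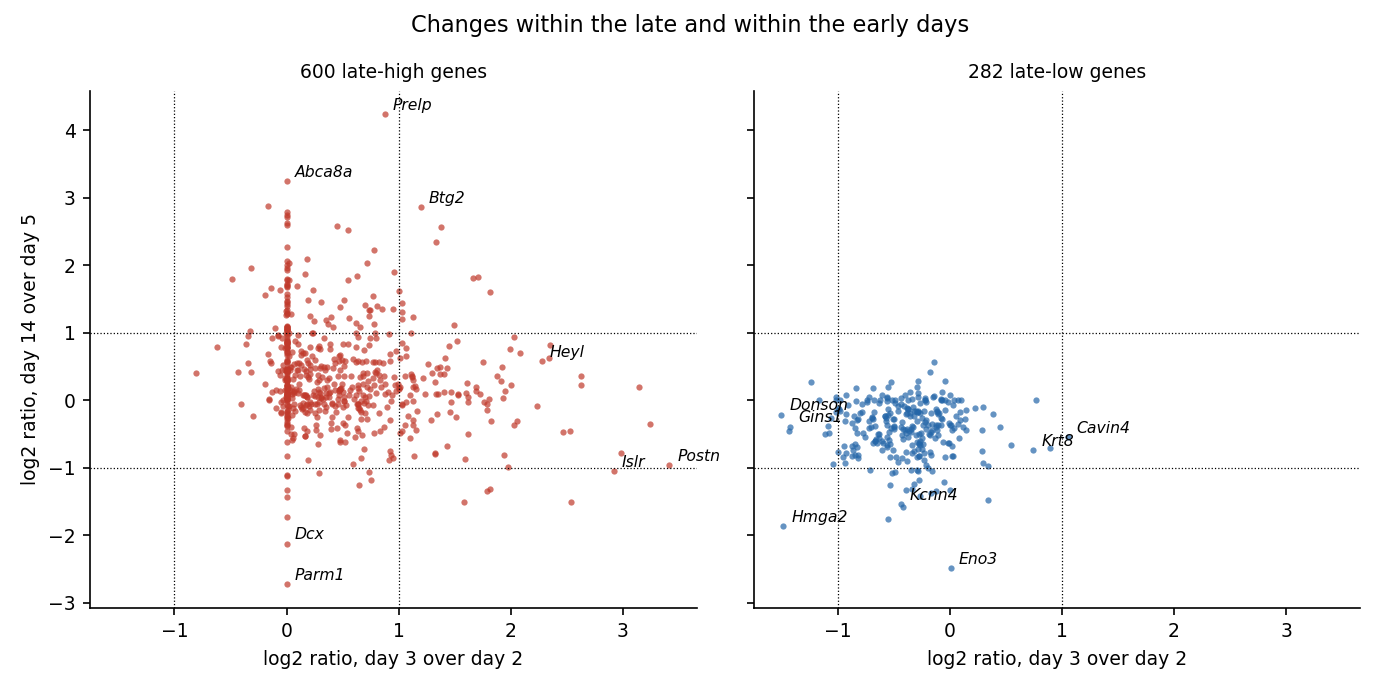
For the 600 late-high (left) and 282 late-low genes (right), the log2 ratio of day 3 over day 2 is set against that of day 14 over day 5, with dotted lines at 2-fold. Genes at the floor on both early days line up at 0 on the horizontal axis. Most points lie within the central square, 390 on the left and 245 on the right, and the late-high genes spread upward and to the right.

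The promoters of the late-high genes had fewer CpG dinucleotides, with a median observed-over-expected ratio of 0.665, compared with 0.809 in late-low genes and 0.789 over all measured genes. The ratio was 0.567 in the 40 promoters of late-high matrix genes. TATAAA, searched on both strands, was held by 10.7% of late-high promoters, 5.44% of late-low promoters and 7.0% of all measured ones, and by 15% of the late-high matrix promoters, while 14.2% of all 27025 RefSeq promoters hold it. The AP-1 site TGANTCA was held by 6.68% of late-high, 4.6% of late-low and 4.77% of all measured promoters, and by 7.93% of all RefSeq ones. The MyoD E-box CAGCTG was held by 16.5% of late-high, 11.3% of late-low and 14.1% of all measured promoters, and by 16.1% of all RefSeq ones. The Myc E-box CACGTG was held by 7.35% of late-high, 13.8% of late-low and 10.7% of all measured promoters, and by 7.24% of all RefSeq ones. The CArG box, the site of serum response factor, was held by 2.45% of late-high and none of 239 late-low promoters, where 1.47% of all measured and 1.57% of all RefSeq ones hold it. These motifs were searched on both strands as well, and a CArG box can contain TATAAA. Shown are the promoters of Lama2 and Aspn, the genes with the largest folds among late-high matrix and immediate early genes whose promoters hold a CArG box, TATAAA or an AP-1 site, with the matches in capitals.
Lama2 (GRCm38.p6, chr10:27616893-27617192, minus strand): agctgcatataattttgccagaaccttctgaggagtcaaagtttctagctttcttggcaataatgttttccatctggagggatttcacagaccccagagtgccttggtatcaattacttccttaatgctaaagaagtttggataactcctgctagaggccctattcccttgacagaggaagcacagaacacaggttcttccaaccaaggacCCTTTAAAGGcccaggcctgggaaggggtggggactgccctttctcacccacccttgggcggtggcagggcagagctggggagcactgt
Aspn (GRCm38.p6, chr13:49544193-49544492, plus strand): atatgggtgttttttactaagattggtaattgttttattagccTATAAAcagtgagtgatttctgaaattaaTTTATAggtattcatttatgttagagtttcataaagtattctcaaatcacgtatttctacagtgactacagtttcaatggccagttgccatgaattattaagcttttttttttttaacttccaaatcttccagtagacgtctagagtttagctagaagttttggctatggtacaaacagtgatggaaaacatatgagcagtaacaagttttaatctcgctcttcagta
Capitals TTTATA in Aspn are TATAAA on the other strand. The CArG box of Lama2 begins at -39, and the matches of Aspn, 1 on each strand, at -207 and -178. Whether any of these matches bears on the change in signal was not tested.

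**Figure D5:**
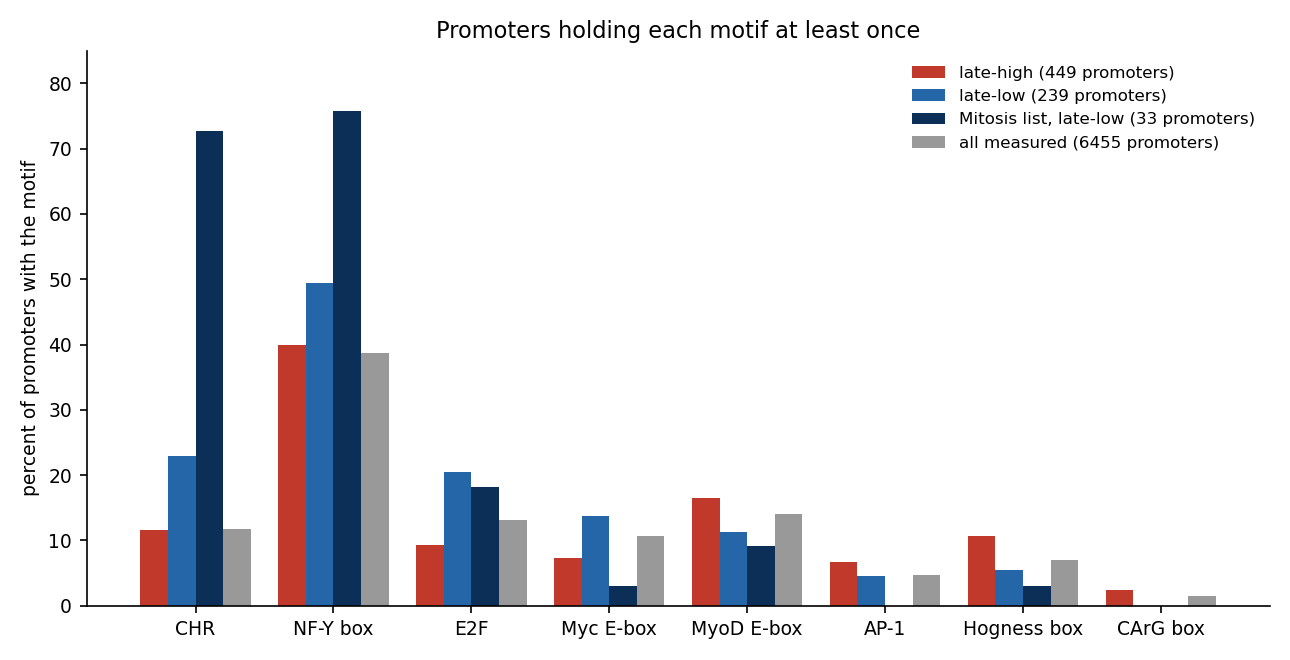
Bars give the percent of promoters, 250 bases before to 50 after the gene start, that hold each motif at least once, for late-high, late-low, late-low mitosis and all measured genes. NF-Y box stands for CCAAT and Hogness box for TATAAA. The late-low mitosis genes stand out for the CHR, at 72.7% against 11.7% of all measured genes, and for the NF-Y box, at 75.8% against 38.7%.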

How the data were processed

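The deposited values are signal intensities, 1 for each probe set and array, which the authors made with MAS5, per the submitters' processing notes; for its scaling settings, nothing was given in the sources used here. Of 22690 probe sets, 20393 had 1 gene symbol in the platform annotation, 691 with several symbols were not used, and 1606 had none. The gene ID of 20364 was found in RefSeq (GRCm38.p6). Arrays were scaled to a common 2% trimmed mean (factors 0.917 and 0.976 for days 5 and 14, 0.997 and 1.13 for days 2 and 3), set to a floor at the pooled median, 43.0, and log2-transformed. Probe sets of a gene were reduced to the one with the highest mean log2 signal. Precision is limited by the number of arrays. Intensities were read with Python 3.11.15, pandas 2.3.3 and numpy 2.4.6 and plotted with matplotlib 3.10.9, and the calling steps were tested on simulated data. Groups are the labelled days. Named genes are the 12 largest calls in each direction with all probe sets of 1 sign, up to 4 called members of each of 50 lists in each direction, up to 4 genes for each time shape, and 15 genes given whether called or not; other genes named were chosen after their values were seen. The compared days, the members and the lists were chosen with earlier results of these data known. Alternatives varied scaling, floor, probe set rule, fold and arrays.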

Additional observations from a re-analysis of the deposited data

How the results depend on the processing

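Of 600 late-high and 282 late-low genes, with 5202 genes without overlap, the counts were 861, 139 and 5216 with the values as deposited, 481, 354 and 5053 after quantile normalization, and 618, 284 and 5221 after centring the arrays on a common median. The median of all measured genes lay at 0.25 log2 units with the values as deposited and at 0.12 in the reported setting. With the floor at the pooled 25th percentile they were 917, 320 and 6532, and with the floor at the pooled 75th percentile 214, 169 and 3075, where 55.9% of the calls were late-high. Averaging the probe sets of a gene gave 446, 209 and 5241 genes, of which 433 late-high and 189 late-low genes were shared with the reported ones, and adding 16 in place of a floor gave 624, 270 and 7260. A 1.5-fold threshold called 1219 and 831 genes and a 4-fold threshold 110 and 16, with 87.3% of the latter late-high. Leaving out the day 2, 3, 5 or 14 array in turn gave 667, 1186, 1141 or 787 late-high genes, 383, 736, 686 or 333 late-low genes and 6290, 6452, 6582 or 6216 without overlap; fewer arrays make the rule easier to pass, and the day 3 and day 5 arrays limit it most. Requiring the call only within the pairs of one label wording (day 5 over day 2, day 14 over day 3) gave 766, 453 and 5648. Some of these settings could not reverse a call. A called gene passes by rule with an array left out, in the pairs of one label wording and at 1.5-fold. The 4-fold threshold can only drop a call. The array factors, 0.917 to 1.13, are too close to turn a 2-fold call round with the values as deposited. A moved floor or 16 added keeps the order of a probe set's signals. These settings could reverse a call only where another probe set came to stand for the gene. The 12 largest named calls in each direction were chosen with all probe sets going the same way, so averaging could not reverse them. None of the 183 named genes that were called changed direction, a result that these limits fixed in large part beforehand. Below the threshold fell 20 with the values as deposited, 9 after quantile normalization, 55 with the higher floor, 33 after averaging probe sets, 7 with 16 added and 109 at 4-fold. The labels carry no replicate numbers to use as a block, so the pairs of one label wording are the only paired reading given. Signal limits the late-low calls: with a mean signal under 200, 1.49% of 3970 genes were late-low and 7.56% late-high, and from 200 to 1000, 5.89% and 7.78% of 3007 genes.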

Other observations

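Some called genes belong to none of the 50 lists. Several groups built around them, which also hold members of the lists, were picked out after their values were seen, so the counts below are descriptions. Over all measured genes 7.57% were late-high and 3.56% late-low. Groups built around called genes hold calls by that choice, so their counts cannot be read against these shares. Phgdh, the first enzyme of serine synthesis, read 1075 and 565 late against 2803 and 3449.8 early (2.61-fold), and the next enzymes Psat1 and Psph were 3.09-fold and 2.65-fold lower. Asns, asparagine synthetase, read 244 and 103 on the late and 1018 and 815 on the early arrays (3.34-fold). Of 15 measured genes of this kind 9 were late-low and none late-high, some of them, such as Mthfd2, shared with the nucleotide list. Atf4, the transcription factor known to control several of them, overlapped between the sides, with 2234 and 2718 on days 5 and 14, against 2934 and 1940.4 on days 2 and 3. Iron genes were split: the transferrin receptor Tfrc, which brings iron in, was late-low with 490.2 and 329 late against 2077 and 1317 early (2.69-fold), and the iron exporter Slc40a1, ferroportin, was late-high with 609 and 290.4 on the late and 10.5 and 52.6 on the early arrays (5.52-fold). The probe sets of Tfrc gave mean log2 differences of -2.04 to -0.47.

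In the signal chain of the interleukin-6 family 8 of 14 measured genes were late-high, among them Il6, Socs3 and Cebpd, already counted in the lists above. Osmr, the oncostatin M receptor, read 585 and 635 on days 5 and 14, against 52.5 and 145 on days 2 and 3 (4.03-fold), Lifr 215 and 253 late against 46.4 and 62.3 early (3.45-fold), and Stat3, the transcription factor they activate, 687 and 772 on the late and 94.1 and 189 on the early arrays (3.63-fold). Genes of sterol and phospholipid handling were late-high in 6 of 9 measured. The set also holds genes that are not carriers, Mylip, which was late-high, and Nr1h3 and Lpl, which were not called. Apoe, apolipoprotein E, read 791 and 4663 on days 5 and 14, against 21.5 and 112 on days 2 and 3 (7.07-fold), and Abca1, the cholesterol exporter, 281 and 461 late against 13.9 and 44.4 early (6.33-fold). Among paralogues of chromatin enzymes, Ezh1 was late-high with 156 and 265 on the late and 27.4 and 52.8 on the early arrays (2.95-fold) while Ezh2 was lower on both late arrays, with 413 and 343 on days 5 and 14, against 915 and 684 on days 2 and 3, and was not called (1.66-fold). Macrophages are known to express Apoe, Abca1 and Slc40a1, their markers were higher on the late arrays as given in the report, and their part in these values was not tested.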
